A study of Danio rerio with 16 samples.

Results

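Whole zebrafish larvae exposed to PCB153 at 1 µM were compared directly with larvae exposed at 0.1 µM, without use of the solvent control in the test. The comparison rests on 8 libraries of the series' 16, namely the 4 labelled 1 µM and the 4 labelled 0.1 µM. Genes entered the test when they reached 1 CPM (counts scaled to 1000000 reads assigned to genes) in at least 4 of these 8 libraries, which held for 20391 of the 32105 genes counted. Exposure had begun 4 hours after fertilisation and lasted until 120 hours, when all larvae were 5 days old. The other 8 libraries were 4 of larvae kept in 0.1% DMSO, the solvent, and 4 of larvae at 10 µM. The labels give no strain, no transgene, no number of larvae per library and no clutch or sequencing batch. Whether libraries of a group came from separate clutches is therefore unknown, and the p-values measure only the spread between these libraries.

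PCB153 is a persistent polychlorinated biphenyl that does not take the flat shape of the dioxin-like congeners. Mammalian work has linked such congeners to the xenobiotic receptors PXR and CAR, while dioxin-like congeners act through the aryl hydrocarbon receptor (AhR) and raise CYP1A. The larval clock is a feedback loop in which CLOCK and BMAL proteins drive period, cryptochrome and REV-ERB genes, whose products repress CLOCK and BMAL activity or transcription. Glucocorticoids, feeding and light all act on parts of this loop, and several of its genes also control glucose and lipid metabolism.

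The libraries held from 12794900 to 15331102 gene counts at 0.1 µM and from 8069225 to 15531744 at 1 µM, with replicate 1 of 1 µM the shallowest. Reads outside annotated genes made up 37.0 ± 1.12% of the uniquely aligned reads at 0.1 µM and 37.3 ± 2.52% at 1 µM (SD, n = 4 libraries each; two-sided exact permutation test, p = 0.857, adjusted p = 0.857 over 2 library measures). Reads not uniquely aligned made up 41.4 ± 13.0% and 35.7 ± 3.89% (SD, n = 4; same exact test, p = 0.514, adjusted p = 0.857). With 4 libraries against 4 the exact permutation test cannot go below p = 0.0286. On the first principal component of the 8 libraries, which held 30.5% of the variance, replicate 2 of 0.1 µM lay at -33.4 and replicate 1 of 1 µM at 32.7. The other 6 libraries lay between -14.1 and 6.7, and values without the pair at the ends are given below beside some of the results. The 12 pairs of replicates within a dose were not duplicates, differing by a chi-square of 3.56 to 13.3 per gene, where counting noise alone gives about 1. Expression of the tissue lists was that of whole larvae, with skeletal muscle genes summing to between 85100 and 109000 CPM per library.

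Few single genes separated the doses in the test with dose as the only term. With edgeR's quasi-likelihood test and Benjamini-Hochberg adjustment over all genes, 4 genes were higher at 1 µM (0.0196% of those tested) and 3 were lower (0.0147%). All 7 shared the same adjusted p of 0.0494, just inside the threshold of 0.05, and the eighth gene stood at 0.0524. Without adjustment 1168 genes were higher and 1355 lower at p under 0.05, of 20391 tested. Chance alone gives about 1 in 20 of the genes tested at that level, over both directions. None of the 7 differed by 2-fold or more. A looser description asks only whether all 4 libraries of 1 µM lay on one side of all 4 of 0.1 µM: 642 genes lay wholly above (3.15%) and 727 wholly below (3.57%). These percentages are the background against which the lists below are read. The median log2 fold change over all genes was 0.002, and 90% of genes lay between -0.36 and 0.30.

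The gene with the smallest p was a copy of SIK2 (ENSDARG00000062315), a salt-inducible kinase that phosphorylates the coactivators of CREB. It measured 125, 112, 113 and 121 CPM in replicates 1 to 4 of 0.1 µM and 163, 153, 166 and 154 CPM at 1 µM. The doses did not overlap, and each stayed within a narrow band, 118 ± 6.34 against 159 ± 6.64 CPM (SD, n = 4). SIK2 rose by 0.43 ± 0.06 on the log2 scale (SE), or 1.35-fold.

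CBS, the cystathionine synthase that takes homocysteine into the transsulfuration pathway, measured 24.3, 23, 22.7 and 24.9 CPM at 0.1 µM. At 1 µM it measured 36.3, 33.9, 30.9 and 33.4 CPM, so that the lowest library of the higher dose exceeded the highest of the lower dose. The log2 fold change was 0.50 ± 0.08 (SE), or 1.41-fold.

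PFKFB4, a bifunctional enzyme that sets the level of fructose 2,6-bisphosphate and so the flux through glycolysis, measured 186, 170, 175 and 174 CPM at 0.1 µM. It measured 330, 222, 267 and 273 CPM at 1 µM. The 0.1 µM libraries were close together and those at 1 µM were spread, with replicate 1 high and replicate 2 low. PFKFB4 rose by 0.63 ± 0.10 on the log2 scale (SE), or 1.55-fold. Its duplicate pfkfb4a, which overlapped between doses, differed by 0.24 ± 0.09 without passing the test (adjusted p = 0.274 by edgeR), and by 0.15 without the end libraries of the first component. The fourth gene that rose was si:dkey-175g6.2, a gene known only by a clone name, with 25.1 ± 2.69 CPM at 0.1 µM and 39.6 ± 5.55 CPM at 1 µM (SD, n = 4).

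Among the genes that fell was muc5.2, a gel-forming mucin of secreted mucus. Its level was 48.0, 66.7, 61.7 and 56.3 CPM at 0.1 µM and 37.3, 38.9, 29.7 and 30.0 CPM at 1 µM. The doses were apart, with replicate 1 the lowest of the 0.1 µM libraries. The change was -0.78 ± 0.12 on the log2 scale (SE), the greatest in size among the 7 genes.

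CAPN9, a calpain protease that in mammals is found mainly in the digestive tract, measured 26.5, 31.9, 30.8 and 29.2 CPM at 0.1 µM and 18.0, 21.7, 19.4 and 20.0 CPM at 1 µM. The groups were well apart and the log2 fold change was -0.58 ± 0.09 (SE). The third gene that fell, si:dkey-65b12.6, has only a clone name and went from 68.2 ± 5.76 to 42.1 ± 6.92 CPM (SD, n = 4). In RNA of whole larvae, fewer cells of a type and less RNA per cell cannot be told apart.

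**Figure D1:**
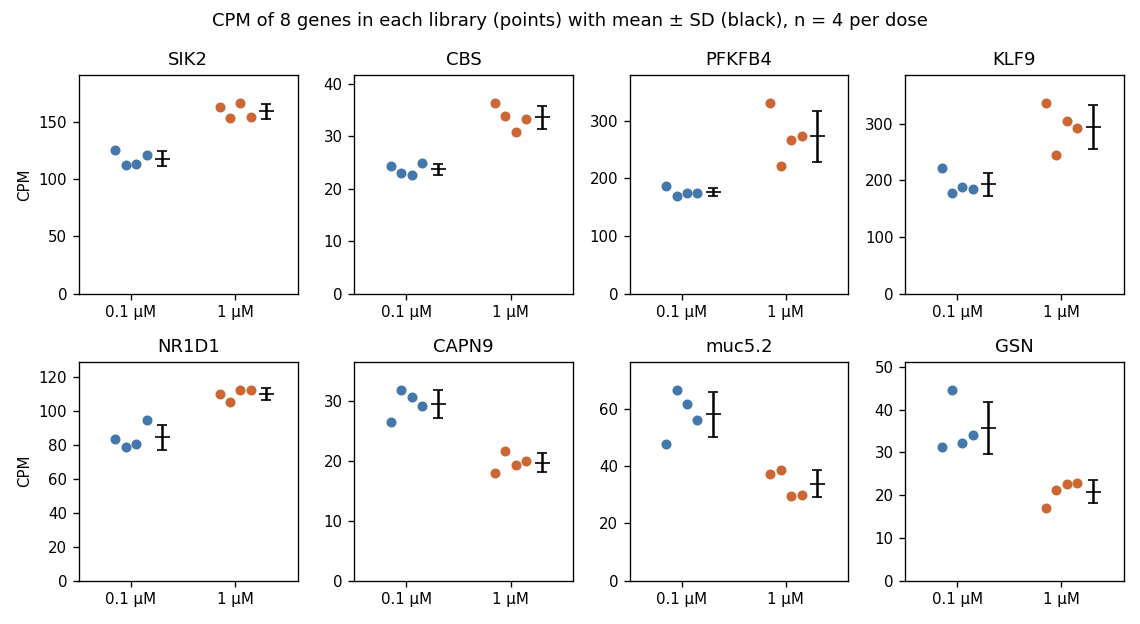
CPM (vertical axis, from 0) of 8 genes in each of the 4 libraries at 0.1 µM and 1 µM (points, replicates 1 to 4 from left to right), with the mean ± SD beside them in black. No gene shown overlaps between doses. SIK2 and CBS are tight within each dose, while PFKFB4 ranges from 222 to 330 CPM at 1 µM. SIK2, CBS, PFKFB4, CAPN9 and muc5.2 passed the test; KLF9, NR1D1 and GSN did not.

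Next in order of p, and short of the threshold, were a copy of SLC6A6 (ENSDARG00000098438), the taurine transporter, on the higher side and GSN (ENSDARG00000045262) and dnajc3b on the lower side. SLC6A6 measured 44.9 ± 5.72 CPM at 0.1 µM and 67.2 ± 5.89 CPM at 1 µM (SD, n = 4), with an adjusted p of 0.0524 by edgeR. GSN encodes the actin-severing protein gelsolin and measured 35.6 ± 6.08 against 20.8 ± 2.75 CPM, with an adjusted p of 0.0608 by edgeR (SD, n = 4). The co-chaperone gene dnajc3b, of the endoplasmic reticulum, measured 29.2 ± 0.916 against 21.6 ± 1.56 CPM, also at 0.0608. None of these 3 overlapped between doses.

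The number of genes called differed between fits. A fit of all 16 libraries, in which DMSO and 10 µM lend their replicate spread but not their levels, gave 123 genes higher (0.603%) and 100 lower (0.490%) by edgeR. All 7 genes were among these 223, and 198 of the 223 did not overlap between doses, against 1369 of all 20391 genes tested. The calls and the overlap come from the same 8 libraries, so neither count is independent support. The common biological coefficient of variation was 0.100 in the 8 libraries and 0.0845 in the 16. Leaving out any of replicates 2, 3 or 4 of 0.1 µM, or replicates 1, 3 or 4 of 1 µM, left no gene past the threshold in either direction by edgeR, with 1838 to 3076 genes at an unadjusted p under 0.05. Leaving out replicate 1 of 0.1 µM or replicate 2 of 1 µM gave 31 genes each. DESeq2 on the 8 libraries called 102 higher and 112 lower. The 7 genes kept their sign in all 17 alternatives tried and were past the threshold in 8 or 9 of them, with adjusted p up to 0.223.

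**Figure D2:**
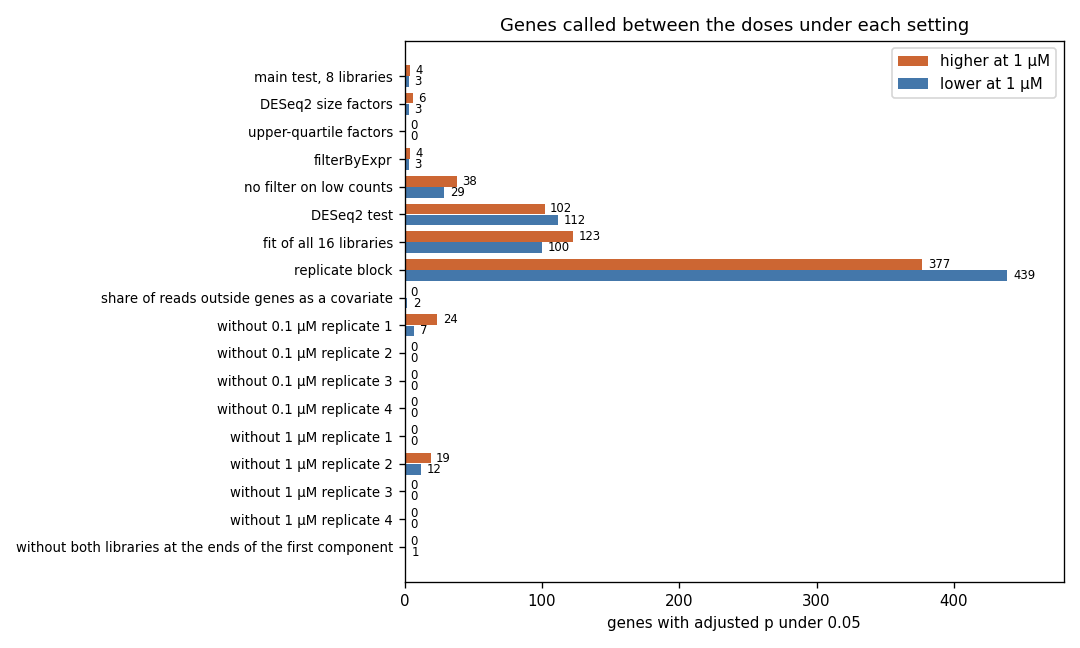
Number of genes with adjusted p under 0.05 (horizontal axis, from 0) under the test of 8 libraries and each alternative, higher at 1 µM in orange and lower in blue. Counts run from 0 in either direction to 377 higher and 439 lower.

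Clock genes are described first, since the study was titled for them and for metabolism. No clock gene passed the test over 8 libraries. Of 23 repressor genes tested, 4 lay wholly above (17.4%, against 3.15% of all genes) and none wholly below. A positive log2 fold change was seen in 21 of the 23, and the median was 0.10. Of 12 output and ROR genes 2 lay wholly above (16.7%) and none wholly below (median 0.14). None of the 6 activator genes was wholly above or below (median -0.02).

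NR1D1, which encodes the repressor REV-ERBα, measured 83.1, 78.6, 80.5 and 94.6 CPM at 0.1 µM and 110, 105, 112 and 112 CPM at 1 µM. The doses were apart, and the log2 fold change was 0.38 ± 0.07 (SE) with an adjusted p of 0.0608 by edgeR. Over the alternatives its adjusted p ranged from 0.000945 to 0.245. Its relatives NR1D2 and nr1d2a each differed by 0.07, and nr1d4a and nr1d4b each by 0.05, all with overlap.

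PER3, a period gene, measured 267, 262, 281 and 302 CPM against 314, 335, 344 and 340 CPM at 1 µM. It also did not overlap, with a log2 fold change of 0.26 ± 0.07 (SE) and an adjusted p of 0.158 by edgeR. NR1D1 and PER3 were the 2 repressor genes past the threshold in the fit of 16 libraries, in which 0.603% of all genes were higher. PER2 differed by 0.16 ± 0.06 and a copy of PER1 (ENSDARG00000012499) by 0.20 ± 0.07, both without overlap between doses. Without the end libraries the difference of that PER1 copy was 0.13. The other PER1 copy (ENSDARG00000056885) differed by 0.34 ± 0.11 but overlapped, because replicate 4 of 0.1 µM stood at 66.4 CPM.

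Cryptochromes, the repressive partners of the period proteins, overlapped between doses. The log2 fold change was 0.25 ± 0.09 for CRY1 ENSDARG00000011583, 0.08 ± 0.06 for CRY1 ENSDARG00000045768 and 0.10 ± 0.06 for CRY2. Without the end libraries the CRY1 values were 0.12 and 0.05. The activators lay near 0: CLOCK differed by 0.04 ± 0.07 (ENSDARG00000011703) and 0.02 ± 0.06 (ENSDARG00000003631). BMAL1 differed by -0.08 ± 0.07 (ENSDARG00000035732) and -0.06 ± 0.07 (ENSDARG00000006791), and all 4 had adjusted p of 0.696 or more by edgeR.

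Genes that respond to glucocorticoids leaned to the higher dose. Of 21 tested none passed, 5 lay wholly above (23.8%, against 3.15% of all genes) and none wholly below, with a median log2 fold change of 0.27. That median was 0.13 without the libraries at the ends of the first component. The PER1 copy ENSDARG00000012499, wholly above, is also among the clock repressors. KLF9, a zinc-finger factor induced by glucocorticoid and thyroid hormone, measured 222, 177, 189 and 184 CPM at 0.1 µM and 336, 244, 305 and 292 CPM at 1 µM. It did not overlap, and its log2 fold change of 0.61 ± 0.10 (SE) came with an adjusted p of 0.0524 by edgeR, ranging from 2.79e-05 to 0.223 over the alternatives. FKBP5, a chaperone of the glucocorticoid receptor, measured 391, 358, 377 and 325 CPM against 510, 377, 437 and 438 CPM, which overlapped in replicate 2 of 1 µM (log2 fold change 0.28 ± 0.09). The receptor gene NR3C1 differed by -0.01. Other members near or below 0 were tsc22d3 (0.09), CEBPD (0.02), HSD3B7 (-0.03) and DUSP1 (-0.12). Of the 21 genes, 18 were positive and 3 negative. Beside KLF9, the genes GLUL ENSDARG00000099776 (glutamine synthetase, 0.32), foxo3b (0.27) and PDK4 (pyruvate dehydrogenase kinase, 0.42) passed in the fit of 16 libraries, though PDK4 overlapped between doses. Of all genes tested, 0.603% were higher in that fit. GLUL, foxo3b, PDK4, NR3C1, tsc22d3, CEBPD, HSD3B7 and DUSP1 were picked for mention after their values were seen, as were the relatives of NR1D1 above. So were the genes named from here on, other than PCK1, PFKFB4, LPIN1, CYP1A1 and CXCR4.

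Metabolic regulators of the gluconeogenesis, hypoxia and insulin lists also leaned to the higher dose, while genes of fatty acid oxidation, given below, did not. PFKFB4 of the hypoxia list was the 1 gene past the test. Some of these lists share members, so their percentages are not separate results. The genes foxo3a and foxo3b, both wholly above, are in the glucocorticoid, gluconeogenesis and insulin lists. FOXO1 ENSDARG00000099555, also wholly above, is in the gluconeogenesis and insulin lists. Among 35 genes of gluconeogenesis and fasting none passed, 7 lay wholly above (20.0%) and 1 wholly below (2.86%), with a median of 0.12. The gene wholly below was PC ENSDARG00000098766 (-0.13 ± 0.06). Of the 35 genes, 24 were positive and 11 negative. PCK1, the rate-limiting enzyme of gluconeogenesis, measured 681, 538, 667 and 686 CPM at 0.1 µM and 825, 649, 915 and 888 CPM at 1 µM. It overlapped only through replicate 2 of 1 µM, while replicate 2 of 0.1 µM lay below every library of both doses. The log2 fold change of PCK1, 0.35 ± 0.11, did not pass (adjusted p = 0.220 by edgeR). It was 0.27 without replicate 2 of 0.1 µM. A copy of FOXO1 (ENSDARG00000099555), a factor restrained by insulin, measured 62.0, 58.8, 63.5 and 71.3 CPM against 96.5, 72.7, 84.8 and 89.1 CPM. It was apart by a small gap (log2 fold change 0.42 ± 0.09, adjusted p = 0.0974 by edgeR). The other FOXO1 copy (ENSDARG00000061549) overlapped and differed by 0.16. The PGC-1-related coactivator pprc1 differed by 0.70 ± 0.14 and the alanine aminotransferase GPT ENSDARG00000055642 by 0.54 ± 0.10, both without overlap. CEBPB, whose product drives gluconeogenic genes in mammalian liver, differed the other way, by -0.41. Of other members, FBP2 stood at -0.21, pck2 at 0.02 and g6pc1a.1 at 0.29, all with overlap.

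In the hypoxia list PFKFB4, described above, was the 1 gene of 37 past the test, and 4 lay wholly above (10.8%) and none wholly below (median 0.16, or 0.10 without the end libraries). EGLN2, a prolyl hydroxylase that marks hypoxia-inducible factors for destruction, measured 25.3, 19.0, 21.1 and 18.2 CPM at 0.1 µM and 31.8, 26.3, 32.6 and 31.1 CPM at 1 µM. Its groups were 1 CPM apart (log2 fold change 0.55 ± 0.11, adjusted p = 0.0842 by edgeR). A copy of EPAS1 (ENSDARG00000057671), which encodes HIF-2α, differed by 0.34 ± 0.08 and PFKFB3 by 0.89 ± 0.27, also without overlap. The other EPAS1 copy (ENSDARG00000008697) differed by 0.16, hif1aa by 0.23 and hif1al by 0.31, all with overlap, and hif1al passed in the fit of 16 libraries. The transcripts of HIF1A (0.06), of VEGFA (0.00 for ENSDARG00000034700 and 0.01 for ENSDARG00000103542) and of LDHA (-0.10) differed little. Glycolysis enzymes had 2 of 33 wholly above (6.06%, against 3.15% of all genes) and none wholly below, with a median of 0.05.

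Among 37 genes of insulin and growth factor signalling none passed, 7 lay wholly above (18.9%) and 2 wholly below (5.41%), with a median of 0.12. The IGF-binding protein genes went both ways, with igfbp6b at 0.66 ± 0.14 and IGFBP2 ENSDARG00000052470 at -0.32 ± 0.09, each without overlap. Outside the lists, 3 genes of growth hormone and cytokine signalling stood among the 60 smallest p. SOCS2, a feedback inhibitor of the growth hormone receptor, measured 36.9, 28.6, 31.1 and 36.4 CPM at 0.1 µM and 61.7, 49.2, 74.1 and 53.3 CPM at 1 µM. Its lowest library at the higher dose lay above every library of the lower dose (log2 fold change 0.84 ± 0.13, adjusted p = 0.0608 by edgeR). CISH, another inhibitor of the same family, differed by 0.60 ± 0.11 and the growth hormone receptor gene ghrb by 0.65 ± 0.11, again without overlap.

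Lipid storage genes differed little as a list, with a few members apart. LPIN1, a phosphatidate phosphatase of triglyceride synthesis, measured 380, 222, 331 and 409 CPM at 0.1 µM and 867, 438, 637 and 559 CPM at 1 µM. Although the doses were apart and the log2 fold change was 0.90 ± 0.26 (SE), the adjusted p was 0.251 by edgeR, with replicate 2 low and replicate 1 high at 1 µM. Without the end libraries the log2 fold change was 0.55. Of 27 genes of fatty acid synthesis and triglyceride storage 4 lay wholly above (14.8%) and none wholly below, with a median of 0.03. These were LPIN1, the lipid droplet gene CIDEC (0.77 ± 0.21) and the lipase genes PNPLA2 (0.52 ± 0.12) and lipea (0.15 ± 0.09). Fatty acid oxidation genes had a median of -0.10, which ranged from -0.13 to -0.05 over the alternatives. Of 29 tested, 9 were positive and 20 negative, with 1 wholly above and 1 wholly below (3.45% each, close to the shares of all genes). ULK2, a kinase that starts autophagy and lies in none of the lists, measured 161, 119, 150 and 166 CPM against 284, 200, 268 and 241 CPM. Its log2 fold change was 0.74 ± 0.12 (adjusted p = 0.0608 by edgeR). The autophagy gene atg9b, which supplies membrane to the autophagosome and is also in no list, differed by 0.41 ± 0.08 and did not overlap.

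Cell division genes lay lower at 1 µM as a group, with no member past the test. DNA replication genes, whose products license, unwind and copy the genome, had 23 of 47 wholly below (48.9%, against 3.57% of all genes) and none wholly above. Of the 47, 46 had a negative log2 fold change, and the median was -0.49. Mitosis genes, of the spindle, the kinetochore and the kinases that drive division, had 16 of 45 wholly below (35.6%) and none wholly above. All 45 were negative, with a median of -0.47. Genes of a list are measured in the same 8 libraries, so their number is not a number of independent observations.

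The summed CPM of the replication list was 1110, 1660, 1230 and 1060 at 0.1 µM and 812, 1010, 939 and 855 at 1 µM. For mitosis genes the sums were 760, 1170, 815 and 722 CPM at 0.1 µM and 556, 700, 615 and 599 CPM at 1 µM. All 4 sums at 1 µM lay below all 4 at 0.1 µM in both lists, by a small margin, and replicate 2 of 0.1 µM stood far above its group. Replicate 2 was also the highest of the 1 µM libraries. Without replicate 2 of 0.1 µM the median log2 fold change was -0.33 for replication and -0.30 for mitosis. Without both libraries at the ends of the first component it was -0.31 and -0.27, with 46 of 47 and 43 of 45 genes negative.

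**Figure D3:**
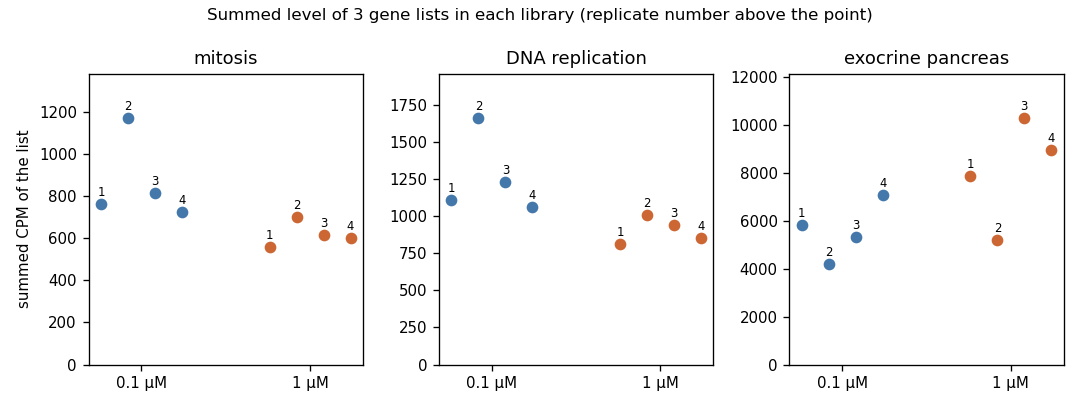
Summed CPM (vertical axis, from 0) of the tested genes of the mitosis, DNA replication and exocrine pancreas lists in each library, with the replicate number above each point. The mitosis and replication sums at 1 µM are all below those at 0.1 µM, where replicate 2 stands highest at 1170 and 1660 CPM. The pancreas sums overlap between doses.

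RRM2 ENSDARG00000020711, a subunit of the enzyme that makes deoxyribonucleotides, had the smallest p of the replication list. It measured 14.9, 18.0, 14.6 and 14.8 CPM at 0.1 µM and 8.95, 12.2, 9.65 and 9.80 CPM at 1 µM. The log2 fold change was -0.62 ± 0.12 (SE) with an adjusted p of 0.0710 by edgeR. Its relative RRM2B, which in mammals supplies nucleotides for repair outside S phase, was the 1 replication gene with a positive value (0.08).

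The replicative helicase and its loaders gave values of a similar size: MCM2 -0.59, MCM3 -0.60, MCM4 -0.53, MCM5 -0.61 and MCM7 -0.44, with GINS2 at -0.88, CDC45 at -0.50 and CDT1 at -0.29. PCNA, the sliding clamp, differed by -0.57. The primase subunit gene PRIM1 (-0.54 ± 0.11) and RPA1 (-0.41 ± 0.09), which coats single strands, were the 2 members past the threshold in the fit of 16 libraries. Of all genes tested, 0.490% were lower in that fit. RRM2 ENSDARG00000020711 did not pass there (adjusted p = 0.169 by edgeR), and neither did any of the 45 mitosis genes.

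CDK1, the kinase that starts mitosis, measured 14.5, 23.6, 16.7 and 16.5 CPM at 0.1 µM and 12.5, 12.6, 9.81 and 10.1 CPM at 1 µM. It did not overlap, and its log2 fold change was -0.68 ± 0.15 (adjusted p = 0.119 by edgeR). The proliferation marker mki67 measured 117, 166, 119 and 109 CPM against 89.7, 98.7, 83.8 and 88.0 CPM. BIRC5, or survivin, of the chromosomal passenger complex, differed by -0.80 ± 0.19 and the cytokinesis kinesin kif20a by -0.74 ± 0.18, both without overlap. The smallest change of the list was that of the cyclin CCNB2 (-0.12).

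A few further genes were picked singly after their values were seen. PAICS, an enzyme of purine synthesis held in the pigment cell list, measured 50.4, 60.6, 46.1 and 52.3 CPM at 0.1 µM and 35.7, 41.2, 37.9 and 39.2 CPM at 1 µM. The gap between groups was about as wide as the range at 1 µM, and the log2 fold change was -0.44 ± 0.08 (adjusted p = 0.0789 by edgeR). ATIC, the enzyme that closes the purine ring, differed by -0.49 ± 0.10 and the folate enzyme MTHFD1 ENSDARG00000018266 by -0.67 ± 0.13, without overlap. Its mitochondrial relative MTHFD1L had a larger and less certain difference of -1.44 ± 0.51, also without overlap.

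**Figure D4:**
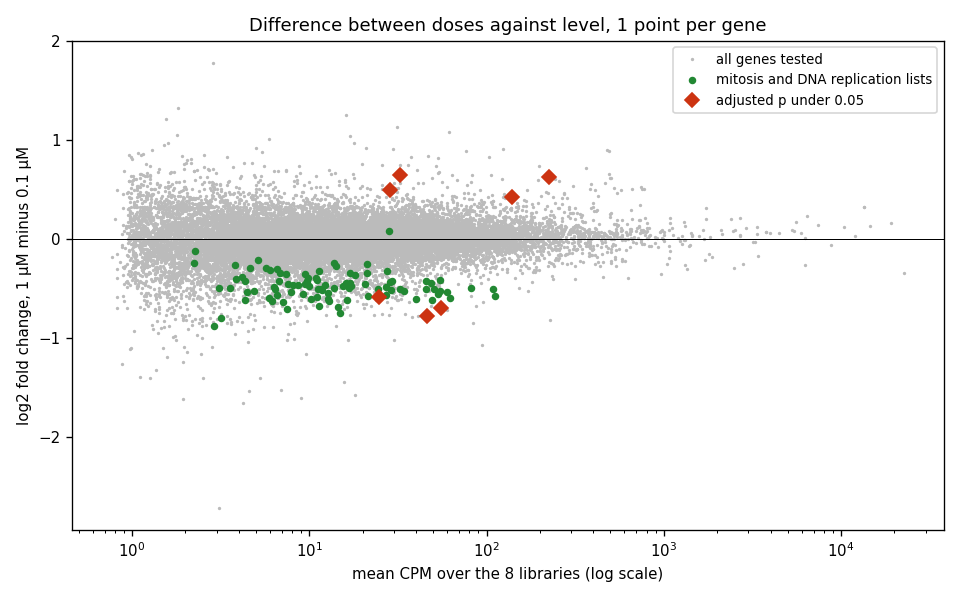
Log2 fold change of 1 µM over 0.1 µM (vertical axis) against mean CPM (horizontal axis, log scale), with each of the 20391 genes tested as a grey point. The 7 genes past the threshold are red diamonds. The genes of the mitosis and DNA replication lists (green) lie below 0 except RRM2B and have medians of -0.47 and -0.49.

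Epidermal genes were lower in part. Of 50 tested none passed, 8 lay wholly below (16.0%) and 3 wholly above (6.0%), with a median of -0.16 that was the same without the end libraries. The ictacalcin gene icn, which encodes a calcium-binding protein of fish skin, measured 240, 185, 200 and 179 CPM at 0.1 µM and 162, 143, 119 and 138 CPM at 1 µM. It did not overlap and differed by -0.52 ± 0.11 (adjusted p = 0.101 by edgeR). The desmosome genes DSP ENSDARG00000022309 (-0.27), DSP ENSDARG00000076673 (-0.29) and JUP ENSDARG00000070787 (-0.24) lay wholly below, while krt15 (0.26) and krt8 (0.13) lay wholly above. AGR2, needed in mammals for mucin folding, differed by -0.38 ± 0.10 without overlap, beside muc5.2, which fell. AQP3 ENSDARG00000003808, a water and glycerol channel of epithelia, is not in the list. It measured 117, 102, 114 and 128 CPM against 94.8, 89.0, 78.1 and 88.6 CPM (log2 fold change -0.40 ± 0.08, adjusted p = 0.0842 by edgeR).

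Secreted liver proteins had 6 of 31 genes wholly below (19.4%) and none wholly above, with a median of -0.16 (-0.21 without the end libraries). The apolipoprotein gene apoa1b measured 2680, 3060, 2610 and 2640 CPM at 0.1 µM and 1940, 2460, 2200 and 2350 CPM at 1 µM. The doses were apart and the log2 fold change was -0.29 ± 0.09 (adjusted p = 0.206 by edgeR). The complement gene c9 differed by -0.57 ± 0.16 and the inhibitor precursor gene ambp by -0.28 ± 0.07. Outside the list, apom, which carries sphingosine 1-phosphate on lipoproteins, measured 97.5, 92.3, 91.4 and 89.5 CPM against 75.0, 73.9, 59.0 and 63.3 CPM. Its log2 fold change was -0.45 ± 0.08 with an adjusted p of 0.0608 by edgeR. The summed level of the 31 liver genes overlapped, from 16500 to 18300 CPM at 0.1 µM and from 16100 to 17300 CPM at 1 µM.

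Digestive enzyme genes of the exocrine pancreas gave the highest list median, 0.47 (0.36 without the end libraries), with 27 of 30 genes positive, yet none passed and none was free of overlap. Their summed level was 5850, 4190, 5330 and 7070 CPM at 0.1 µM and 7890, 5190, 10300 and 8950 CPM at 1 µM. Replicate 2 of 1 µM lay within the range of the lower dose, and the libraries of each dose differed among themselves. The trypsin gene prss1 differed by 0.53 and the amylase gene amy2a by 0.66, while the pancreas factor PTF1A stood at -0.17.

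Among the other tissue lists, those of neurons and glia and of photoreceptors lay closer to 0. Pituitary and brain peptide hormone genes had a median of 0.21, with 22 of 27 positive and 5 negative. Of these 27, 2 lay wholly above (7.41%, against 3.15% of all genes) and none wholly below. Neurons and glia had 6 of 54 genes wholly above (11.1%) and none wholly below, by small amounts (median 0.07), such as both GAD1 genes, whose enzyme makes GABA, at 0.17 (ENSDARG00000027419) and 0.27 (ENSDARG00000093411). Among 63 photoreceptor genes 3 lay wholly above (4.76%, against 3.15% of all genes) and none wholly below (median 0.03). The cone channel gene CNGA3 ENSDARG00000012297 differed by 0.55 ± 0.11. Outside the list, the retinal homeobox gene six7, which in zebrafish specifies green cones, measured 57.9, 54.1, 50.3 and 57.0 CPM against 77.7, 78.1, 70.1 and 66.7 CPM. Its doses were apart (log2 fold change 0.41 ± 0.07, adjusted p = 0.0608 by edgeR).

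Leukocyte genes had a median of -0.22, with 1 of 29 wholly below (3.45%, close to the 3.57% of all genes) and none wholly above. Their median was -0.35 without the end libraries and reached -0.02 under another alternative. The gene wholly below was CXCR4 ENSDARG00000057633, a chemokine receptor with levels near the 1 CPM of the filter. It measured 1.75, 1.89, 2.85 and 2.60 CPM against 1.66, 1.46, 1.33 and 1.31 CPM. The other copy, CXCR4 ENSDARG00000041959, overlapped and differed by -0.40 ± 0.17, or by -0.22 without replicate 4 of 0.1 µM. The lens list had a median of 0.07 that ranged from -0.08 to 0.29 over the alternatives, and its summed level ranged from 3970 to 7490 CPM at 1 µM alone and from 4400 to 7050 CPM at 0.1 µM. Cartilage and bone genes had 3 of 44 wholly below (6.82%) and 1 wholly above (2.27%), with a median of -0.10.

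**Figure D5:**
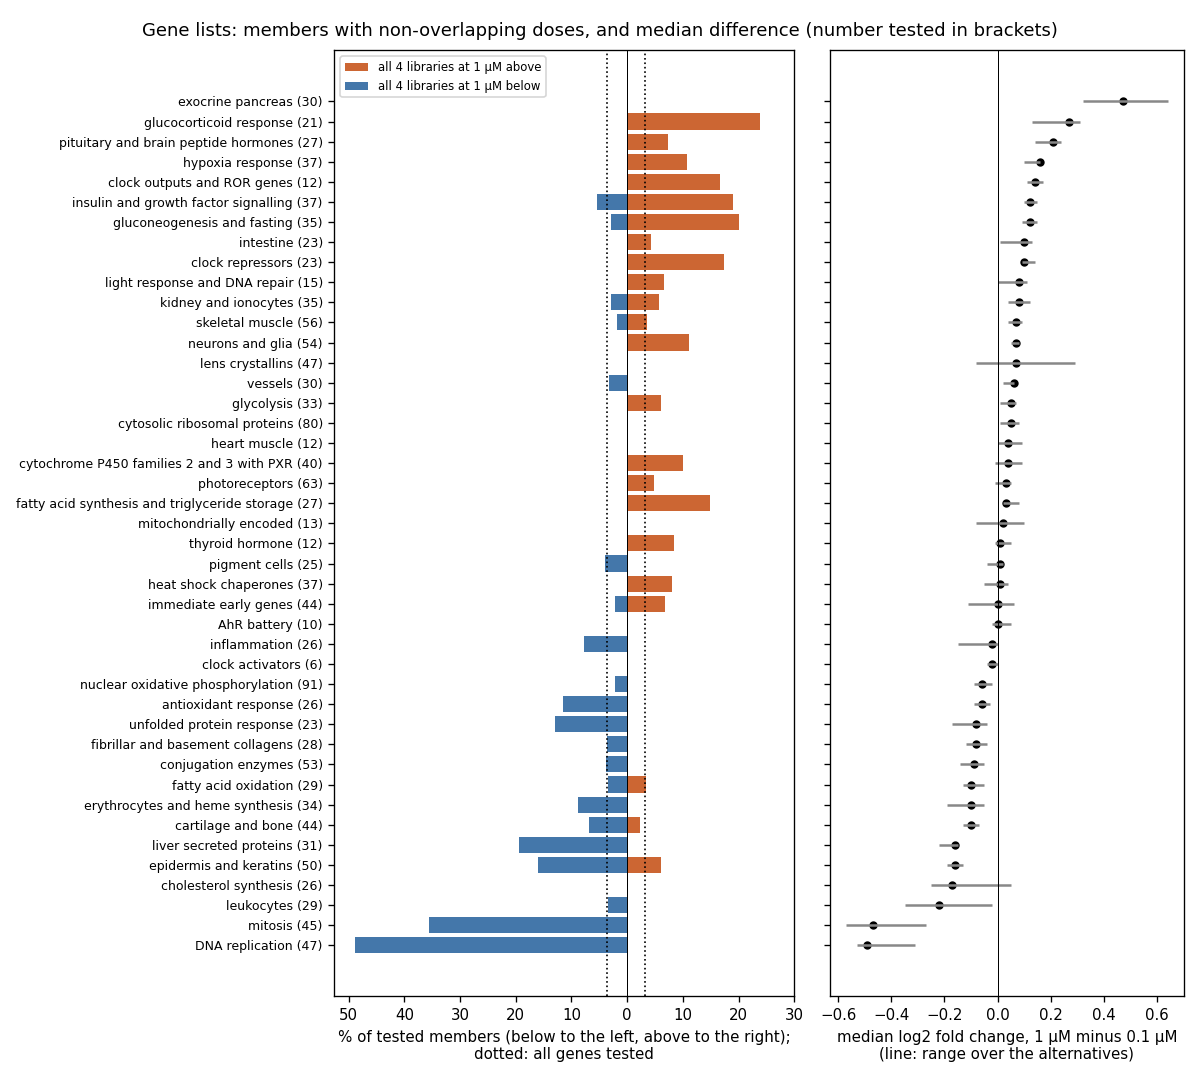
Left, the percentage of each list's tested genes (number in brackets) whose 4 libraries at 1 µM all lay above (orange, to the right) or below (blue, to the left) all 4 at 0.1 µM, with dotted lines at 3.15% and 3.57% for all genes. Right, the median log2 fold change of the list (point) and its range over the 17 alternatives (line). Mitosis and DNA replication stand lowest at -0.47 and -0.49 and exocrine pancreas highest at 0.47.

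Targets of the AhR, the receptor of dioxin-like compounds, did not separate the doses. None of 10 genes lay wholly above or below, and the median was 0.00. CYP1A1 measured 34.7, 29.8, 30.1 and 37.9 CPM at 0.1 µM and 34.1, 25.8, 32.9 and 37.3 CPM at 1 µM, nearly the same range, with a log2 fold change of -0.03 ± 0.11. Of 40 cytochrome P450 genes of families 2 and 3 together with PXR, 4 lay wholly above (10.0%) and none wholly below, with a median of 0.04.

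NR1I2, the PXR gene itself, measured 41.4, 38.4, 39.7 and 40.2 CPM against 56.7, 48.6, 56.4 and 48.9 CPM. The groups were apart, and the log2 fold change was 0.40 ± 0.07 (adjusted p = 0.0608 by edgeR). A low transcript, cyp2k6, measured 1.6, 0.741, 1.31 and 1.36 CPM at 0.1 µM and 7.54, 2.28, 3.92 and 4.11 CPM at 1 µM. Its log2 fold change of 1.78 ± 0.35 had the largest size among the 10 genes that differed by 2-fold or more without overlap, 3 of them higher and 7 lower, and the adjusted p was 0.0989 by edgeR. The PXR target cyp3a65 differed by 0.29 and overlapped. Conjugation enzymes had 2 of 53 wholly below (3.77%, close to the 3.57% of all genes) and none wholly above, with a median of -0.09.

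Stress genes gave few differences. Antioxidant genes had 3 of 26 wholly below (11.5%) and none wholly above (median -0.06), namely SOD1 (-0.24), GPX4 (-0.24) and gpx1a (-0.16), while the NRF2 target HMOX1 stood at -0.22. Unfolded protein genes had 3 of 23 wholly below (13.0%), dnajc3b with PDIA4 (-0.48) and CANX (-0.25). Heat shock chaperones had 3 of 37 wholly above (8.11%, against 3.15% of all genes), with a median of 0.01. Immediate early genes had 3 of 44 wholly above (6.82%) and 1 wholly below (2.27%), with a median of 0.00. Those above were klf6b (0.60), MYC ENSDARG00000045695 (0.33) and DUSP5 (0.43). The gene below was klf2a, a flow-responsive factor of vessels, which measured 94.3, 113, 104 and 120 CPM against 47.0, 69.0, 48.5 and 74.5 CPM. It did not overlap, with a log2 fold change of -0.85 ± 0.15 and an adjusted p of 0.104 by edgeR. Cholesterol synthesis genes had a median of -0.17 that became 0.05 without the end libraries, and none of 26 lay wholly above or below. Nuclear oxidative phosphorylation genes had a median of -0.06 (2 of 91 wholly below), and cytosolic ribosomal proteins 0.05 with none of 80 wholly above or below. Without the end libraries these medians were -0.02 and 0.01. CYP26A1, which degrades retinoic acid, lies in none of these lists and measured 9.53, 11.8, 11.4 and 11.0 CPM against 7.03, 7.32, 6.44 and 7.77 CPM. It differed by -0.61 ± 0.11 (adjusted p = 0.0608 by edgeR).

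Levels of a few of these genes in all 4 groups, from 1 scaling of the 16 libraries, are given as a description with no test. PFKFB4 measured 87.2 ± 6.36 CPM in DMSO, 175 ± 6.60 at 0.1 µM, 272 ± 43.8 at 1 µM and 308 ± 50.6 at 10 µM (SD, n = 4 each). KLF9 measured 118 ± 7.65, 192 ± 19.4, 293 ± 38 and 334 ± 42.4 CPM in the same order. For both genes the means ascended with dose, and 1 and 10 µM lay within their spread of each other.

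NR1D1 measured 31.5 ± 3.59, 83.8 ± 7.23, 109 ± 3.85 and 112 ± 6.42 CPM (SD, n = 4), with the widest step between DMSO and 0.1 µM. PER3 measured 203 ± 9.19, 277 ± 18.0, 332 ± 14.3 and 289 ± 9.5 CPM, highest at 1 µM. PCK1 measured 422 ± 18.5, 640 ± 70.1, 815 ± 121 and 1070 ± 63.9 CPM, and LPIN1 235 ± 10.9, 334 ± 81.3, 622 ± 179 and 765 ± 104 CPM. Both had their highest mean at 10 µM.

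Further genes followed other patterns over the groups. CBS measured 25.6 ± 2.85, 23.6 ± 1.09, 33.5 ± 2.10 and 26.6 ± 2.53 CPM (SD, n = 4), with 1 µM above the rest. The mucin gene muc5.2 measured 33.8 ± 5.25, 57.9 ± 8.01, 33.8 ± 4.65 and 17.4 ± 4.67 CPM, so that 0.1 µM was the highest group and the mean at 1 µM equalled that of DMSO. SIK2 ENSDARG00000062315 measured 93.5 ± 3.27, 117 ± 6.26, 158 ± 6.64 and 158 ± 5.4 CPM, with equal means at 1 and 10 µM. CAPN9 measured 24.5 ± 3.46, 29.4 ± 2.33, 19.7 ± 1.52 and 17.0 ± 1.29 CPM.

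At the edge of the filter, 198 genes reached 1 CPM in exactly 4 of the 8 libraries and were tested, with a median of their mean levels of 1.02 CPM. A further 226 genes reached it in exactly 3 and were left out, at 0.922 CPM. Of the 198, 3 entered only through the 4 libraries of a single dose, and none of the 198 passed the test.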

How the data were processed

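The deposited values are whole-number read counts per gene, made by the authors without normalization. Per the submitters' processing notes the tools were Trimmomatic, HTSeq and edgeR with the build GRCz10. No versions are stated there. For aligner and annotation release the entry is "not given in the sources used here", so no coordinates are printed. Libraries were stranded total RNA depleted of ribosomal RNA, per the labels' protocols, and counted on the reverse strand in union mode, per the file names.

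The 5 summary lines for reads in no gene were left out of library sizes. CPM uses TMM-scaled gene totals. CPM serves to compare libraries for a gene, not levels between genes, because gene length is not taken into account. The test was edgeR 4.0.16 (R 4.3.3), a robust quasi-likelihood fit of the 8 libraries with dose as the only term and Benjamini-Hochberg adjustment over 20391 genes. SEs were derived from each log2 fold change and its F statistic. The procedure was also run on simulated counts drawn gene by gene, without variation shared by the genes of a library. That run therefore does not bear on how the calls or lists hold in these libraries. Alternatives were other scalings, filters, DESeq2 1.42.0, a fit of all 16 libraries, a replicate block, a covariate and leaving out libraries.

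Symbols came from a table of gene names, many in human form. Of the genes tested 19143 had one and 3026 shared it with another identifier, printed then, and reads of near-identical duplicates cannot be separated. The 43 gene lists hold 1030 names or patterns, of which 118 matched no gene. Another 14 name matches to unrelated genes were removed after the values were seen. Genes were named as follows: the 5 smallest p in each direction where fewer than 5 passed, list members past the threshold, and a set of NR1D1, period, cryptochrome, CLOCK, BMAL1, KLF9, FKBP5, PCK1, PFKFB4, LPIN1, CYP1A1 and CXCR4 genes. All others were picked after their values were seen. The comparison, lists and named genes were chosen with earlier results of these data known. Lists are described by counts and medians without a test. Intervals and SEs cover the spread of these libraries only.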

Additional observations from a re-analysis of the deposited data

Results flagged for a closer look

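Of 64 groups of 4 libraries checked for a library far from the others (by its gap to the nearest, relative to the range), 2 stood out, and chance gives about 1 in 20. The SLC6A6 copy ENSDARG00000098438 measured 58.4 CPM in replicate 2 of 1 µM, against 69.7 to 70.9 CPM in the other 3 libraries of that dose. PCK1 measured 538 CPM in replicate 2 of 0.1 µM, against 667 to 686 CPM in the others of its dose.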

How the results depend on the processing

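Against 4 genes higher and 3 lower, edgeR gave 0 and 0 with upper-quartile factors (1079 and 1448 at an unadjusted p under 0.05; DESeq2 gave 102 and 112). It gave 38 and 29 with no filter on low counts, 123 and 100 in the fit of all 16 libraries, and 0 and 2 with the outside-gene read share as a covariate. With DESeq2's size factors edgeR gave 6 and 3. The separate DESeq2 test, on its own scaling, gave 102 and 112 and left 5535 adjusted p undefined. With the replicate number as a block the counts were 377 and 439. That block lowered the common biological coefficient of variation from 0.100 to 0.0796. Same-numbered libraries deviated together with correlations of 0.29, 0.12, 0.02 and 0.03. The 2 libraries of replicate 1 were each other's best match, which held for no other number. Whether the numbers stand for pairs is not given in the labels, and they were not taken as pairs. Leaving out 1 library gave 0 to 24 genes higher and 0 to 12 lower, and leaving out both end libraries of the first component, an alternative chosen after seeing the data, gave 0 and 1 (755 and 1022 unadjusted).

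The difference in the share of reads outside genes, 0.298 percentage points, was -0.0514 without replicate 1 of 1 µM and -0.727 without replicate 2, and ranged from -0.727 to 1.03 over the libraries left out. CLOCK ENSDARG00000003631 (0.02) went to 0.00 without replicate 1 of 1 µM and -0.01 without both end libraries. CYP1A1 (-0.03) went to 0.04 without replicate 4 of 0.1 µM and 0.07 without replicate 2 of 1 µM, in a range from -0.10 to 0.07. The cause of these shifts was not tested. No other single gene followed over the alternatives changed direction. List medians that crossed 0 over the alternatives were those of cholesterol synthesis (-0.25 to 0.05), lens (-0.08 to 0.29), mitochondrially encoded genes (-0.08 to 0.10), immediate early genes (-0.11 to 0.06), heat shock chaperones (-0.05 to 0.04), photoreceptors (-0.01 to 0.05), P450 genes (-0.01 to 0.09), the AhR battery (-0.02 to 0.05), thyroid hormone genes (-0.01 to 0.05) and pigment cells (-0.04 to 0.02). With 4 libraries a dose and 8069225 counts in the shallowest, a gene that missed the threshold was not shown to be equal between doses.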
